A study of Bos taurus with 20 samples.

Results

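Eicosanoids are signalling lipids made from arachidonic acid, which phospholipases free from membranes. Cyclooxygenases and prostaglandin synthases turn it into prostaglandins, the mediators of fever, pain and swelling, while the 5-lipoxygenase branch turns it into leukotrienes, which draw neutrophils into tissue. Other lipoxygenases make hydroxy fatty acids and precursors of lipoxins, and dehydrogenases inactivate the prostaglandins. In mastitis, the inflammation of the mammary gland, eicosanoids are known as mediators released into milk.

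The genes described here are enzymes of this pathway, including ALOX15 and HPGD. ALOX15 and HPGD were chosen on their measured difference between challenged and unchallenged glands, and the other members were listed by name for their place in the pathway, with results of these data at hand. Of 9 genes listed, 8 had a probe set by the array's annotation, out of 9155 genes with a single symbol on the array, and together they had 13 probe sets. PLA2G4A, the cytosolic phospholipase that frees arachidonic acid, had none and was not analysed here. The makers of prostanoids were PTGS1, PTGS2 and PTGES, and those of the leukotriene branch were ALOX5, ALOX5AP and LTA4H. HPGD was the degrading enzyme, and ALOX15 was kept apart from both.

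RNA of mammary tissue was measured on 20 Affymetrix GeneChip Bovine Genome Arrays, 1 for each of the 4 glands of 5 mid-lactation Holstein Friesian cows. In each cow the right front gland stayed unchallenged (NC), and the other 3 received 100 CFU of Escherichia coli through the teat canal. The left front gland was left untreated (CNT), and the rear glands received 300 mg cefapirin, a cephalosporin antibiotic (CF), or 300 mg cefapirin with 20 mg prednisolone, a glucocorticoid (CFPD), from 4 h after challenge and again at later milkings. Cows 4 and 5 were sacrificed at 24 h and cows 1, 2 and 3 at 48 h. This gave 2 arrays per group at the earlier and 3 at the later time. By the study's methods, treated glands had received 2 doses in cows sacrificed at 24 h and 4 in those at 48 h.

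Some features of the design limit these groups. Position in the udder and group coincided for NC and CNT, all glands of a cow shared a circulation, and the time points were different cows. The sample labels name the cisternal region and the study's methods the mid parenchyma, and the milk protein genes were near the top of the scale in every gland (PAEP averaged 15.55 on the log2 scale). Which rear gland was CF and which CFPD is uncertain in cows 1 and 4, because an exchange of these labels brings the arrays closer to the listed fold changes of the study. Results that use the labels are therefore also given exchanged where that changes a call or a direction. Array medians lay between 7.12 and 7.31 on the log2 scale.

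Levels are log2 RMA signals, on which a difference of 1 is a factor of 2, and levels of different probe sets were not compared. A gene was called where limma gave a Benjamini-Hochberg adjusted p under 0.05 over all probe sets tested and the groups differed by 1 or more on the log2 scale. Probe sets had to exceed the array median on 2 arrays at 24 h or 3 arrays at 48 h to be tested. HPGD, ALOX15, ALOX5AP, LTA4H and PTGES passed at both times, PTGS2 at 24 h alone and PTGS1 at 48 h alone, while both probe sets of ALOX5 lay below the median on all arrays. Counts of genes use the probe set with the highest mean.

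Challenge without treatment went with lower HPGD and ALOX15 and higher ALOX5AP. In the treated glands of every cow these 3 genes lay nearer their unchallenged levels than in the CNT gland. HPGD, called 15-hydroxyprostaglandin dehydrogenase, oxidizes prostaglandins to inactive products. At 24 h its level was 10.90 and 12.42 in the NC glands of cows 4 and 5, and 7.60 and 8.01 in their CNT glands. At 48 h it was 9.84, 12.35 and 10.02 in the NC glands of cows 1, 2 and 3, and 7.70, 10.24 and 7.40 in their CNT glands. HPGD was thus lower in the CNT gland of every cow, without overlap of the groups at 24 h and with overlap at 48 h, where the CNT gland of cow 2 lay above the NC glands of cows 1 and 3. The log2 fold change of CNT against NC was −3.86 (SE 0.61, n = 2), a factor of 14.5, at 24 h and −2.29 (SE 0.90, n = 3), a factor of 4.89, at 48 h. These differences are a description, because HPGD was chosen on them.

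The second probe set of HPGD followed the first, with Pearson's r = 0.984 over the 20 arrays. It gave −3.17 (SE 0.50) at 24 h and −1.97 (SE 0.75) at 48 h for CNT against NC. Its lowest levels were in CNT glands as well, between 5.38 and 7.34, against 7.20 to 9.81 in the NC glands.

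ALOX15 is a lipoxygenase that adds oxygen to arachidonic and linoleic acid, and in humans it is known from eosinophils, airway epithelium and some macrophages. Its level at 24 h was 10.13 and 9.75 in the NC glands of cows 4 and 5 and 8.76 and 7.71 in their CNT glands. At 48 h cows 1, 2 and 3 had 12.14, 11.21 and 12.57 in NC and 8.82, 8.98 and 8.23 in CNT. The groups did not overlap at either time, and the NC glands at 48 h were all above those at 24 h. For CNT against NC the log2 fold change was −1.71 (SE 0.35, n = 2), a factor of 3.26, at 24 h and −3.30 (SE 0.52, n = 3), a factor of 9.84, at 48 h, again given as a description with no test.

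**Figure D1:**
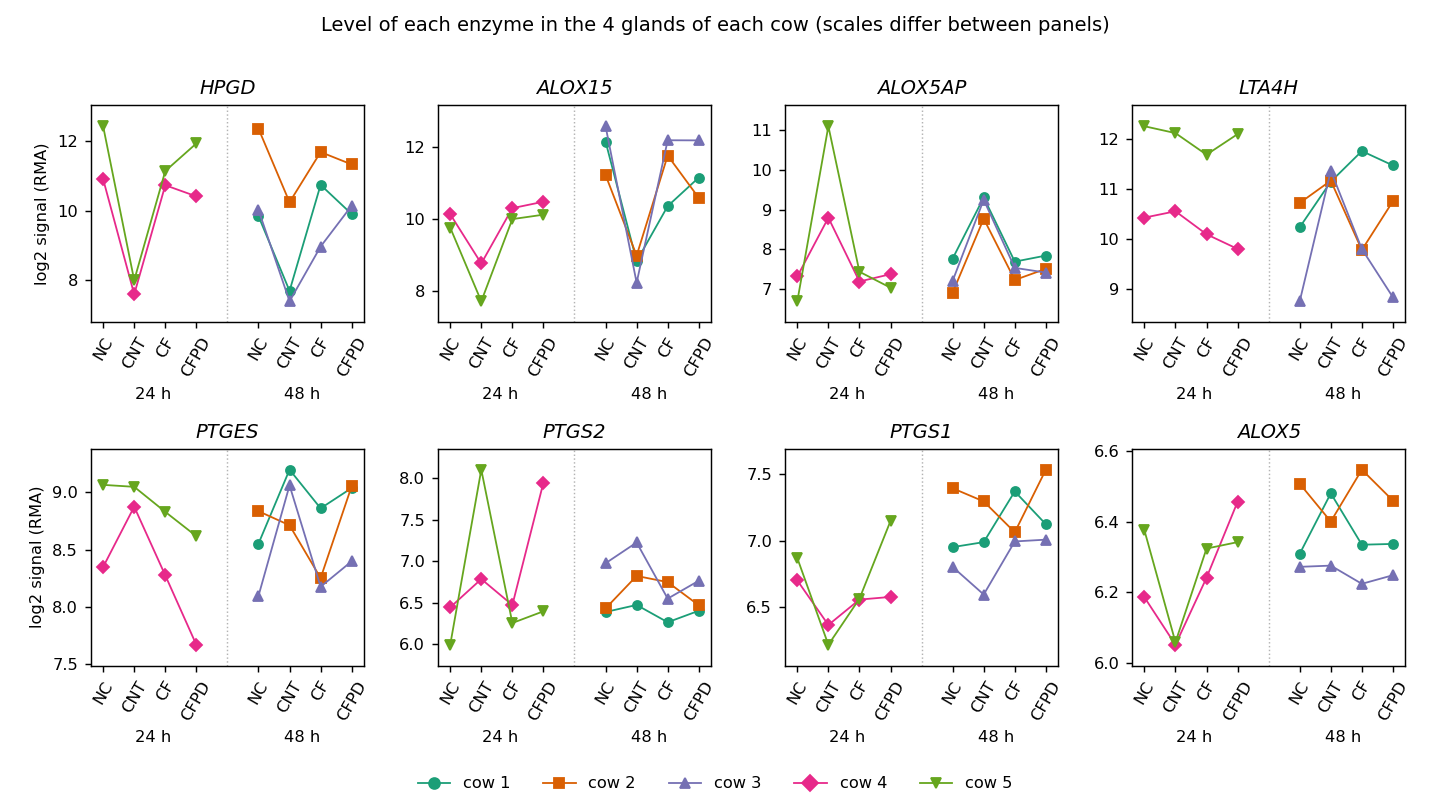
Level (log2 RMA signal, vertical axis, with a scale of its own in each panel) of the 8 enzymes in the NC, CNT, CF and CFPD glands at 24 h (left) and 48 h (right), each by its highest probe set. Each line joins the 4 glands of a cow; HPGD and ALOX15 dip and ALOX5AP peaks in the CNT gland of all 5 cows.

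ALOX5AP moved the other way. It encodes the protein that presents arachidonic acid to 5-lipoxygenase and is known from neutrophils and other myeloid cells. Its level was 7.31 and 6.69 in the NC glands of cows 4 and 5 and 8.80 and 11.11 in their CNT glands. At 48 h it was 7.76, 6.91 and 7.20 in NC and 9.31, 8.77 and 9.25 in CNT for cows 1, 2 and 3. All 5 CNT glands lay above all 5 NC glands, and the CNT gland of cow 5 stood highest. The log2 fold change was 2.95 (SE 0.66, adjusted p = 0.069) at 24 h, with adjusted p = 0.0255 under a block for the cow. CNT stood above NC by 1.485 in cow 4 and 4.42 in cow 5. Fits at 24 h that left out an array or a cow gave 1.485 to 4.42. At 48 h the log2 fold change was 1.82 (SE 0.24, adjusted p = 0.00397), a factor of 3.53, and ALOX5AP was called. This call held in 7 of 9 fits that left out an array or a cow, and was lost without cow 2 (adjusted p = 0.0688) or cow 3 (adjusted p = 0.105).

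Markers of neutrophils stood higher in the same glands. Of 7 neutrophil marker genes tested, 6 were called higher in CNT at each time, and the mean level of the 10 with a probe set was 9.69 to 11.05 in CNT against 7.53 to 7.83 in NC at 24 h, and 9.25 to 10.18 against 7.20 to 7.90 at 48 h. FCGR3A and ITGAM, of the same list, lay below the array median on all arrays. Macrophage markers had 0 of 8 called at 24 h and 3 of 9 called higher at 48 h. Their mean level was 8.46 to 9.18 in CNT against 7.89 to 8.21 in NC at 24 h. At 48 h it was 9.29 to 9.88 against 8.18 to 8.89. CD68 was at 3.42 at 24 h (adjusted p = 0.0709), and MSR1 alone was below 0, at −0.51 at 24 h and −1.51 at 48 h. In bulk tissue more or fewer cells of a type cannot be told apart from more or less RNA per cell, and the part of these cells in the difference of ALOX5AP was not tested.

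Markers of structural cells are given beside HPGD and ALOX15. Of 12 luminal epithelial markers tested, 1 (KRT19) was called lower at 24 h and 0 at 48 h, and the mean level of the list was 12.83 to 13.04 in CNT against 13.12 to 13.23 in NC at 24 h, and 13.15 to 13.23 against 13.02 to 13.28 at 48 h. Of 7 myoepithelial markers 1, CNN1, a contractile protein, was called lower at 24 h (−1.68, adjusted p = 0.0419) and 0 at 48 h. The mean level of this list was 9.71 to 9.95 in CNT against 10.49 to 10.54 in NC at 24 h. In the CF and CFPD glands, where HPGD and ALOX15 lay above CNT, it was 9.72 to 10.11. At 48 h it was 10.38 to 10.89 in CNT and 10.19 to 11.48 in NC. Of 6 fibroblast markers 0 were called, with mean levels of 7.67 to 8.13 in CNT and 8.33 to 8.89 in NC at 24 h, without overlap, and of 8.32 to 9.75 and 8.46 to 9.02 at 48 h. LUM (−1.73, adjusted p = 0.153) and DCN (−1.26, adjusted p = 0.11), matrix proteoglycans, had the lowest log2 fold changes of this list at 24 h. Luminal, myoepithelial and fibroblast lists thus all stood lower in CNT than in NC at 24 h, without overlap, as HPGD and ALOX15 did. So did the adipocyte list (5.56 to 5.64 against 5.67 to 5.83), with 3 of its 4 genes below the array median on all arrays. The endothelial list overlapped, at 6.84 to 6.93 in CNT and 6.66 to 7.13 in NC. Each group had only 2 glands at 24 h. In the CF and CFPD glands at 24 h the luminal list averaged 13.00 to 13.20 and 12.88 to 13.18. The fibroblast list averaged 8.02 to 8.55 and 8.06 to 8.45 there. Eosinophil and mast cell markers were scarcely measured. FCER1A, CCR3 and HDC, 3 of the 4 with a probe set, lay below the array median on all arrays, as did both platelet markers. The part of any change in cell make-up in the difference of HPGD and ALOX15 was not tested.

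LTA4H converts leukotriene A4 to leukotriene B4, the form that attracts neutrophils. At 24 h it was at 10.43 and 12.25 in NC and at 10.55 and 12.11 in CNT, so that the cows differed more than the groups. At 48 h it was 10.24, 10.72 and 8.76 in NC and 11.15, 11.17 and 11.36 in CNT, and every CNT gland exceeded every NC gland, with the largest gap in cow 3. The log2 fold changes were −0.01 (SE 0.99, adjusted p = 0.999) and 1.32 (SE 0.71, adjusted p = 0.275). Neither passed the test.

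PTGES makes prostaglandin E2. NC and CNT were 8.35 and 8.88 in cow 4, 9.07 and 9.05 in cow 5, 8.55 and 9.20 in cow 1, 8.84 and 8.71 in cow 2, and 8.10 and 9.06 in cow 3. The CNT gland was thus higher in cows 1, 3 and 4 and slightly lower in cows 2 and 5, and the groups overlapped at both times. The log2 fold change was 0.25 (SE 0.38, adjusted p = 0.753) at 24 h and 0.50 (SE 0.26, adjusted p = 0.27) at 48 h.

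PTGS2 is the inducible and PTGS1 the constitutive cyclooxygenase. By its highest probe set, PTGS2 was 6.44 and 5.99 in NC and 6.78 and 8.10 in CNT at 24 h, and 6.39, 6.43 and 6.97 in NC and 6.47, 6.82 and 7.22 in CNT at 48 h. The CNT gland exceeded the NC gland in all 5 cows, by 2.11 in cow 5 and by 0.08 to 0.39 in the others, and the groups overlapped at 48 h. At 24 h the log2 fold change was 1.22 (SE 0.57, adjusted p = 0.282). This probe set exceeded the array median on 3 of the 20 arrays, and it was tested at 24 h through 2 glands in which it stood high, the CNT gland of cow 5 and the CFPD gland of cow 4. The other probe sets of the gene were below the median on all arrays. With CNT above NC in all 5 cows, by 0.275 to 1.59, the first of them ran partly with the highest (r = 0.571). The second ran against it (r = −0.349), with CNT below NC in all 5 cows (−0.02 to −0.61), so the level of PTGS2 is uncertain.

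PTGS1 was 6.70 and 6.87 in NC and 6.37 and 6.22 in CNT at 24 h, where it was not tested. For cows 1, 2 and 3 at 48 h it was 6.95, 7.39 and 6.80 in NC and 6.99, 7.29 and 6.60 in CNT. The groups were apart at 24 h and overlapped at 48 h, with a log2 fold change of −0.09 at 48 h (SE 0.23, adjusted p = 0.84). The second PTGS1 probe set followed this one loosely (r = 0.401), was below the array median on all arrays and was not tested. It was lower in CNT than in NC in all 5 cows (−0.20 to −0.53), without overlap at either time, and higher than CNT in the CF and CFPD glands of all 5, by 0.19 to 0.52. ALOX5, the 5-lipoxygenase itself, ranged from 6.05 to 6.55 over all 20 arrays by its higher probe set, and its probe sets did not follow each other (r = −0.114).

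Counted over genes, 1 of the 6 members tested was called in CNT against NC at 24 h, HPGD, which was lower, and with the cow as a block ALOX15 and ALOX5AP joined it. Of all probe sets tested at 24 h, 1.62% were called higher and 0.769% lower, and with the block 3.98% and 2.11%. At 48 h ALOX15 was called lower and ALOX5AP higher, beside 2.15% of all probe sets called higher and 0.515% lower, and the block added HPGD, beside 3.87% and 1.3%. HPGD and ALOX15 were chosen on this contrast, so nothing is read from their part of these counts.

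Set side by side, HPGD and ALOX15 lay below the making enzymes of both branches in every cow. Of the prostanoid makers tested, PTGS2 and PTGES were at 1.22 and 0.25 at 24 h and PTGS1 and PTGES at −0.09 and 0.50 at 48 h, and none was called. In the CNT minus NC differences of a cow, taken over the 3 prostanoid and 3 leukotriene makers measured, the median was 0.41, 0.15 and 0.61 in cows 1, 2 and 3 and 0.23 and −0.08 in cows 4 and 5. The differences of HPGD lay between −2.11 and −4.42 and those of ALOX15 between −1.37 and −4.34. In every cow both were below the lowest making enzyme, which was PTGS1 in 4 cows and PTGES in cow 2, and the highest was ALOX5AP except in cow 3, where it was LTA4H. No test is given, because the low values of HPGD and ALOX15 chose them.

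**Figure D2:**
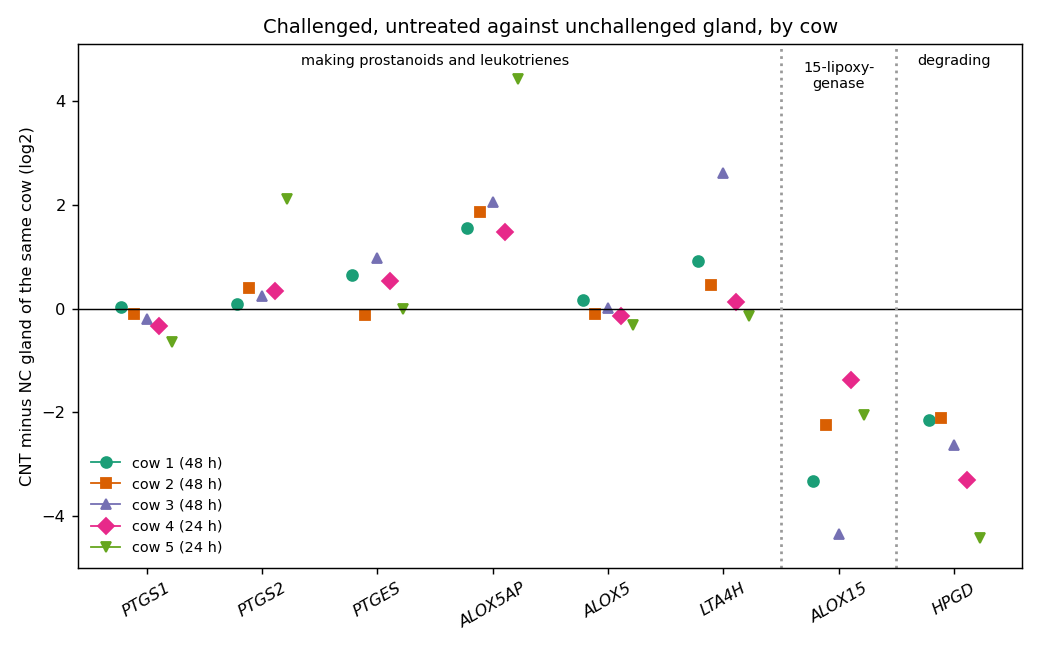
Difference in log2 signal between the CNT and the NC gland of the same cow (vertical axis), for each enzyme (horizontal axis) and cow (symbols). The 6 making enzymes scatter around or above 0, with ALOX5AP above 0 in all 5 cows, while ALOX15 and HPGD lie between −1.37 and −4.42.

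Treatment with cefapirin, with or without prednisolone, was compared with challenge alone. These comparisons use the same CNT arrays as the one above, so the low CNT values for which HPGD and ALOX15 were chosen enter them again, and their p-values here are not independent of that choice. ALOX15 was 10.29 and 9.99 in the CF glands of cows 4 and 5, and 10.35, 11.76 and 12.18 in those of cows 1, 2 and 3. All CF glands lay above all CNT glands. The log2 fold change of CF against CNT was 1.91 (SE 0.35, adjusted p = 0.043) at 24 h and 2.75 (SE 0.52, adjusted p = 0.0212) at 48 h. In the CFPD glands ALOX15 was 10.47 and 10.11 at 24 h and 11.14, 10.58 and 12.18 at 48 h, again without overlap with CNT. The estimates against CNT were 2.06 (SE 0.35, adjusted p = 0.0455) and 2.62 (SE 0.52, adjusted p = 0.0328).

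The calls of ALOX15 depended on single glands. Its direction did not, but each fit that left out glands still held CNT values for which ALOX15 was chosen. The direction is thus a description. At 24 h the CF call was lost without the CNT gland of cow 5 (adjusted p = 0.133), the CF gland of cow 5 (0.149) or that of cow 4 (0.218), and the CFPD call without the CNT gland of cow 5 (0.117) or the CFPD gland of cow 5 (0.157) or cow 4 (0.185). At 48 h the CF call was lost without the CNT gland of cow 1 (0.0561) or cow 3 (0.0752). The same held without the CF gland of cow 2 (0.121) or cow 3 (0.0785). It was also lost without all glands of cow 1 (0.0559), cow 2 (0.228) or cow 3 (0.147). The CF call thus held in 2 of 9 fits at 48 h and the CFPD call in 1 of 9. Over these fits the log2 fold change stayed between 1.38 and 3.37 for CF and between 1.53 and 3.13 for CFPD.

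HPGD was 10.73 and 11.14 in the CF glands of cows 4 and 5 and 10.74, 11.68 and 8.97 in those of cows 1, 2 and 3. The CF gland exceeded the CNT gland in all 5 cows, by 1.44 to 3.13, and the groups overlapped at 48 h through the high CNT gland of cow 2. For CF against CNT the estimate was 3.13 (SE 0.61, adjusted p = 0.0506) at 24 h and 2.02 (SE 0.90, adjusted p = 0.232) at 48 h. With the cow as a block the adjusted p was 0.0041 and 0.0132.

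In the CFPD glands HPGD was 10.41 and 11.93 at 24 h and 9.90, 11.33 and 10.14 at 48 h. Again it exceeded the CNT gland in all 5 cows, with overlap of the groups at 48 h. The log2 fold change against CNT was 3.37 (SE 0.61, adjusted p = 0.0531) and 2.01 (SE 0.90, adjusted p = 0.262). With the cow as a block, adjusted p was 0.00369 and 0.0156, and with the labels of cows 1 and 4 exchanged it was 0.0354 at 24 h.

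ALOX5AP was 7.19 and 7.43 in the CF glands at 24 h and 7.69, 7.22 and 7.53 at 48 h, each below every CNT gland. Against CNT it was at −2.64 (SE 0.66, adjusted p = 0.0879, and 0.0355 with a block for the cow) at 24 h and −1.63 (SE 0.24, adjusted p = 0.00598) at 48 h. In the CFPD glands it was 7.37 and 7.03 at 24 h and 7.84, 7.51 and 7.41 at 48 h, also below every CNT gland. This gave −2.75 (SE 0.66, adjusted p = 0.0952, and 0.0363 with the block) and −1.52 (SE 0.24, adjusted p = 0.0111). The 48 h calls were lost without cow 2 (0.0787 for CF and 0.0794 for CFPD) or cow 3 (0.133 and 0.208), and that of CFPD also without the CFPD gland of cow 3 (0.0596). Neutrophil marker genes averaged 7.50 to 8.00 in CF and 7.60 to 8.04 in CFPD glands at 48 h, below the CNT range given above.

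PTGES and LTA4H were not called against CNT in either treated group. Neither was PTGS2 at 24 h or PTGS1 at 48 h, the only times at which these genes were tested. For PTGES at 48 h the log2 fold change was −0.56 (SE 0.26, adjusted p = 0.251) in CF and −0.16 (SE 0.26, adjusted p = 0.76) in CFPD. PTGES was 8.28 and 8.83 in CF and 7.67 and 8.62 in CFPD at 24 h, below both CNT glands, with log2 fold changes of −0.41 (SE 0.38, adjusted p = 0.575) and −0.82 (SE 0.38, adjusted p = 0.309). PTGS2 was low in the CF glands of cows 4 and 5, at 6.47 and 6.26, but the CFPD gland of cow 4 was at 7.94 and that of cow 5 at 6.40. Its estimates against CNT were −1.08 (CF) and −0.27 (CFPD), and −0.34 and −1.01 with the labels of cows 1 and 4 exchanged, which puts the high gland in CF. As labelled, a single gland thus stood high in each of the CNT and CFPD groups at 24 h, and not in the same cow. LTA4H in CF ran from 9.78 to 11.76 and in CFPD from 8.84 to 12.09, across the ranges of NC and CNT.

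Counted over genes, 1 of 6 members tested at 24 h was called in CF and in CFPD against CNT, ALOX15, which was higher, and with the block HPGD and ALOX5AP joined it. The background was 0.546% higher and 1.59% lower for CF, and 0.361% higher and 1.04% lower for CFPD. With the block it was 1.75% and 4.16% for CF and 1.48% and 3.49% for CFPD. At 48 h 2 of 6 were called in each, ALOX15 higher and ALOX5AP lower. Here 0.138% of all probe sets were called higher and 1.5% lower for CF, and 0.162% and 1.05% for CFPD. The block again added HPGD, with 0.746% and 3.23% of all probe sets called for CF and 0.7% and 2.37% for CFPD. Nothing is read from the part of ALOX15 and HPGD in these counts, since the CNT glands that chose them are in each.

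**Figure D3:**
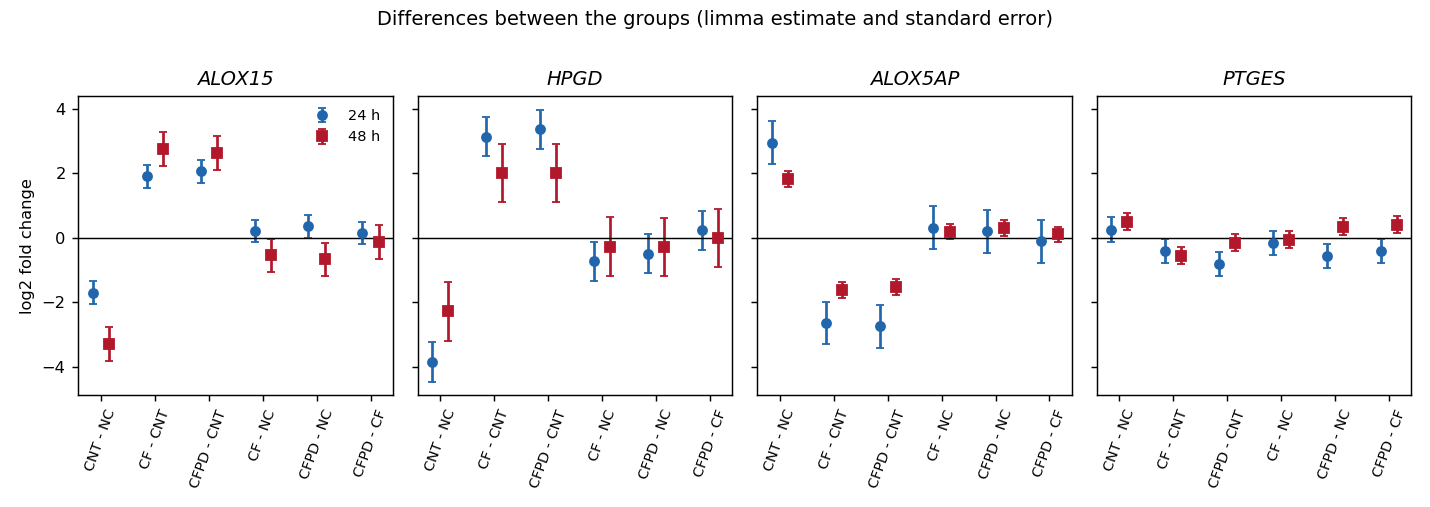
Log2 fold change (vertical axis; points are limma estimates and bars 1 standard error) of ALOX15, HPGD, ALOX5AP and PTGES in the 6 comparisons of groups (horizontal axis), at 24 h (circles, n = 2) and 48 h (squares, n = 3). The estimates for CF and CFPD against NC and for CFPD against CF lie between −0.73 and 0.40, nearer 0 than those of ALOX15, HPGD and ALOX5AP against CNT.

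Against the unchallenged glands no member was called in CF or CFPD at either time, and 0% of all probe sets were called in any of these comparisons. ALOX15 differed from NC by 0.20 (95% interval −0.62 to 1.03) in CF and 0.35 (−0.47 to 1.18) in CFPD at 24 h, and by −0.55 (−1.69 to 0.60) and −0.68 (−1.82 to 0.47) at 48 h. HPGD differed by −0.73 (−2.16 to 0.70) and −0.49 (−1.93 to 0.94) at 24 h and by −0.27 (−2.26 to 1.71) and −0.28 (−2.26 to 1.70) at 48 h. For ALOX5AP the differences were 0.31 (−1.25 to 1.87) and 0.20 (−1.36 to 1.76) at 24 h, and 0.19 (−0.34 to 0.72) and 0.30 (−0.23 to 0.82) at 48 h. The treated groups overlapped NC for these genes at both times, apart from the second HPGD probe set in CF at 24 h, which was at 8.02 in both CF glands and at 8.09 and 9.45 in NC. The intervals are wide enough to hold log2 differences of 1 or more, apart from those of ALOX5AP at 48 h, so equal levels were not shown.

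Prednisolone added to cefapirin gave no call for any member, with 0% of all probe sets called in CFPD against CF at both times. HPGD differed by 0.24 (−1.20 to 1.67) at 24 h and −0.01 (−1.99 to 1.98) at 48 h, ALOX15 by 0.15 (−0.67 to 0.97) and −0.13 (−1.27 to 1.01), and ALOX5AP by −0.11 (−1.67 to 1.45) and 0.11 (−0.42 to 0.63). PTGES was lower in CFPD in both cows at 24 h (−0.41, adjusted p = 1) and higher in all 3 cows at 48 h (0.40, adjusted p = 1). With the labels of cows 1 and 4 exchanged the signs turned for ALOX15 at 24 h (−0.03), HPGD at 48 h (0.55), LTA4H at 48 h (0.10), PTGES at 24 h (0.20) and PTGS2 at 24 h (from 0.81 to −0.67).

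The challenge difference was also compared between the time points, in a fit of all 20 arrays. The 48 h minus 24 h value was −1.59 for ALOX15 (SE 0.76, adjusted p = 0.652), 1.57 for HPGD (SE 1.33, adjusted p = 0.838) and −1.13 for ALOX5AP (SE 0.65, adjusted p = 0.733). None of the 7 members tested was called, and 0% of all probe sets were called in the time difference of CNT against NC, of CF against CNT or of CFPD against CNT. Cow, time and, in the treated glands, the number of doses cannot be told apart here. Without the CNT gland of cow 4, ALOX5AP passed the test in these differences.

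Other genes of the pathway were read from lists named by role, of which 38 genes had a probe set. In CNT against NC, 1 of the 23 tested at 24 h was called higher and 0 of the 21 tested at 48 h. Of all probe sets tested, 1.62% and 2.15% were called higher and 0.769% and 0.515% lower at these times. The medians of the listed genes were 0.33 and 0.36, beside −0.01 and 0.13 for all probe sets tested. The gene called was ANXA2, annexin A2, a membrane-binding protein, at 1.13 (SE 0.22, adjusted p = 0.0489) at 24 h. It was called lower in CF than in CNT at 24 h, with a log2 fold change of −1.20 (SE 0.22, adjusted p = 0.0453). In that comparison 1.59% of all probe sets were called lower than in CNT, beside ANXA2 as 1 of 23. The partner of ANXA2, S100A10, at 1.33 at 48 h (SE 0.59, adjusted p = 0.197), did not pass. With the cow as a block 3 of these genes were called in CF and in CFPD against CNT at 24 h (ANXA2, PLA2G12A and S100A10) and 2 in each comparison with CNT at 48 h (GGT1 and PTGDS). Of all probe sets, the block called 5.91% in CF and 4.97% in CFPD against CNT at 24 h, and 5.17%, 3.98% and 3.07% in CNT against NC and in CF and CFPD against CNT at 48 h.

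Among phospholipases, PLA2G16 was at 0.93 (SE 0.21, adjusted p = 0.0697) and PLA2G12A at −0.57 (SE 0.23, adjusted p = 0.223) at 24 h. At 48 h both had the opposite sign, with −0.46 (SE 0.43, adjusted p = 0.543) and 0.16 (SE 0.19, adjusted p = 0.643). Of further prostanoid makers, PTGDS, which makes prostaglandin D2, was at 1.54 at 48 h (SE 0.56, adjusted p = 0.127), and PTGES3 was at −0.09 at 24 h. For CF and CFPD against CNT at 48 h PTGDS was at −2.20 (adjusted p = 0.0696) and −1.91 (adjusted p = 0.123), and with the cow as a block it was called in all 3 comparisons at 48 h (adjusted p = 0.0101, 0.00242 and 0.00587).

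Other genes that clear prostaglandins did not lie with HPGD. Their median log2 fold change in CNT against NC was 0.60 over 4 tested at 24 h and 0.42 over 3 at 48 h, beside −0.01 and 0.13 for all probe sets tested, and 0 were called. PTGR2, a prostaglandin reductase, was at 0.91 at 24 h (SE 0.17, adjusted p = 0.0444), under the fold change needed for a call. PTGR1, another reductase, was at 0.52 and 0.74 at the 2 times, CBR3, a carbonyl reductase, at 0.69 at 24 h and SLCO3A1, a transporter, at −0.21 at 24 h. In the leukotriene list GGT1, a gamma-glutamyltransferase that trims leukotriene C4, was at −1.29 at 48 h (SE 0.40, adjusted p = 0.0848) and MGST3 at 0.39. The receptors PTGER4 and PTGDR2 were at 0.80 and −0.42 at 48 h (adjusted p = 0.398 and 0.177).

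**Figure D4:**
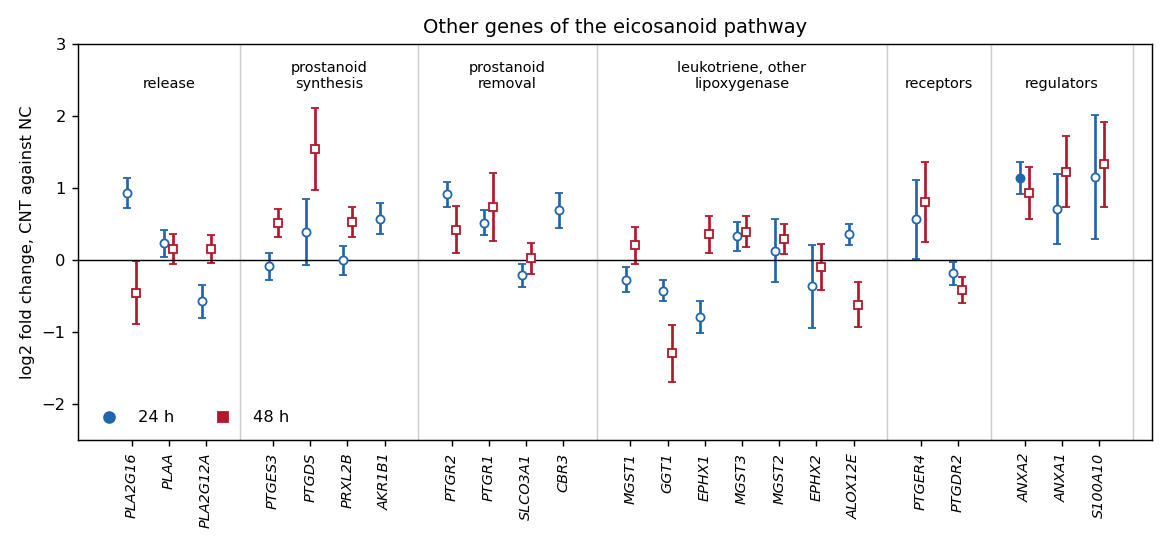
Log2 fold change of CNT against NC (vertical axis; bars are 1 standard error) of the other pathway genes tested, grouped by role, at 24 h (circles) and 48 h (squares), with filled symbols for genes called. ANXA2 at 24 h (1.13) is the filled symbol. At 48 h PTGDS (1.54) lies farthest above 0 and GGT1 (−1.29) farthest below.

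The members also varied together within cows. After subtraction of the mean of each cow, HPGD and ALOX15 had r = 0.784 over the 20 arrays, HPGD and ALOX5AP r = −0.942, and ALOX15 and ALOX5AP r = −0.81. PTGES ran with LTA4H (r = 0.699), while ALOX5 stayed within r = −0.558 and 0.501 of every other member. These points share cows, groups and the CNT glands that stand apart, so the values are a description.

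On the same scale, among 8887 other probe sets with a symbol, the genes most like ALOX15 were AHCYL2 (r = 0.981), GPAT4 (0.973), MPC2 (0.969), ADCY6 (0.967) and PC (0.96). MPC2 carries pyruvate into mitochondria, PC is pyruvate carboxylase, and GPAT4 begins the synthesis of glycerolipids. Those most like HPGD were TPD52L1 (0.968), GLT8D2 (0.956), NXN (0.947), FAH (0.94) and RAPGEF2 (0.933), of which FAH acts in tyrosine breakdown. ALOX5AP was most like GMIP (0.978), PSTPIP1 (0.977), LOC407171 (0.974), CD55 (0.972) and CCL3 (0.972), and CCL3 is a chemokine that attracts leukocytes. Without the subtraction of cow means, 1, 0 and 2 of these 5 genes stayed among the 5 most like ALOX15, HPGD and ALOX5AP.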

How the data were processed

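RNA from 20 mammary glands of 5 cows was hybridised to Affymetrix GeneChip Bovine Genome Arrays. The authors deposited log2 signals, made by RMA in the affy package with background correction, quantile normalization and a summary per probe set. Versions, and whether both time points were normalized together, are not given in the sources used here. Raw intensities were not used. Of 24128 probe sets, 112 were controls and were left out, 13318 had 1 symbol in the array's annotation, 86 several and 10724 none. The filter on the array median left 13004 probe sets at 24 h, 13000 at 48 h and 13873 in the fit of all arrays.

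For each time point, limma (version 3.58.1, under R 4.3.3) fitted its 4 groups jointly with no term for the cow, as the study names limma and no such term. Standard errors and 95% intervals use moderated variances, with 4 residual degrees of freedom at 24 h and 8 at 48 h and a prior of 3.05 and 3.38. Precision is limited by the number of arrays. The fit was tested on simulated data with independent errors on each array and no effect of the cow. That simulation could therefore not test the lack of a term for the cow. The glands of a number in the labels come from the same animal, so the numbers pair the samples, and deviations from group means correlated on average by 0.521 (24 h) and 0.448 (48 h) between glands of a cow. P-values of this fit treat the glands of a cow as independent, which they were not, and cover the cows of 1 experiment. Those with the block measure the spread of differences within cows.

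The members and gene lists were chosen with earlier results of these data known. All members were named with all their probe sets, and of the other lists the genes called, those with the largest rise and fall in CNT against NC, and the 5 most alike. Alternatives were the cow as a block, all arrays in 1 fit, other filters, quantile and median scaling, another prior, exchanged labels, no minimum fold change and leaving out arrays and cows. The exchange combined with the block was added after the data were seen.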

Additional observations from a re-analysis of the deposited data

How the results depend on the processing

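With a replicate block for the cow, fixed or random, 3 members (ALOX15, ALOX5AP and HPGD) were called at 24 h in each of CNT against NC, CF against CNT and CFPD against CNT, where 1 was called without it; at 48 h the fixed block added HPGD in each, and the random block in CNT against NC. The share of all probe sets called rose as well, with the fixed block to 6.1%, 5.91% and 4.97% in these comparisons at 24 h and to 5.17%, 3.98% and 3.07% at 48 h. The block combined with exchanged labels was chosen after the data were seen, and under it 3 were called in CF and in CFPD against CNT at 24 h, and exchanged without it 2 in CFPD against CNT (ALOX15 and HPGD). A second quantile normalization gave 2 at 24 h in both treated comparisons, and a trended, robust prior gave 2 in CF against CNT. In 1 fit of all 20 arrays, 1 member was called in CFPD against CNT at 48 h. Leaving out an array or a cow gave 0 to 2 members in each of the 6 comparisons with CNT at 24 h and 48 h, and 0 to 1 in the 3 time differences. At 24 h HPGD lost its call against NC in all 6 such fits, with log2 fold changes of −3.10 to −4.62. Where a fit left an arm with 1 gland, that gland was assumed to vary like the others, and without cow 4 or 5 every 24 h arm had 1 gland, with the spread taken from 48 h. The block changed no other call of a member. The CNT glands for which ALOX15 and HPGD were chosen enter each comparison with CNT. Nothing is therefore read from the part of these genes in the counts above. Over members and alternatives, 1341 values kept their side of the threshold, 51 crossed to a call and 52 lost one. A change of sign was counted only for values called in either fit, and there were 0. Values that were not called did change sign. LTA4H in CNT against NC at 24 h ran from −0.92 to 0.91 over the fits leaving out an array or cow. The cause of these changes was not tested. PTGS1, PTGS2 and ALOX5 lay near or below the array median, which limits what their values show.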
